A study of Homo sapiens with 12 samples.

Results

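Plasma cell differentiation genes were followed in Ramos, a line of Burkitt lymphoma B cells of human origin, after induction of microRNA-28 (miR-28). The genes were 8 by name, IRF4, PRDM1, XBP1, JCHAIN, MZB1, CD38, TNFRSF17 and SDC1, chosen by matching the Ensembl identifiers of the deposited table to these symbols. Of these, 7 had a row among the 12725 genes of the table, and SDC1 was not analysed here. The 6 miR-28 libraries came from cells carrying miR-28 in pTRIPZ, a lentiviral vector with a doxycycline-inducible promoter, and the 6 scramble libraries from cells carrying the same vector with a scrambled insert. Cells of both groups had been selected with puromycin at 0.4 µg/ml, induced with doxycycline at 0.5 µg/ml for 2 days and sorted for the red fluorescent protein of the vector, so there was no group without vector, drug or sort. Each miR-28 library is paired in the labels with 1 scramble library, which gives 6 pairs. Pairs 1, 2 and 3 belong to library batch 1 and pairs 4, 5 and 6 to batch 2. The labels mark pairs 1, 4 and 5 as XENO 1, pairs 2 and 6 as XENO 2 and pair 3 with no number, without saying what XENO means. The sample descriptions give pairs 4 and 5 the number of pair 1 with bis and tris, and pair 6 that of pair 2 with bis, and nothing says that the cultures were separate, so p-values measure the spread between these samples, which may in part be technical. The cells are all of 1 line.

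A germinal centre B cell becomes an antibody-secreting plasma cell when a small set of transcription factors takes over from the B cell programme. IRF4 starts the switch, PRDM1 (which encodes Blimp-1) represses B cell genes such as PAX5, BCL6 and MYC, and XBP1 expands the endoplasmic reticulum and the secretory machinery. Secretory products and cofactors follow, among them the joining chain JCHAIN, which links IgM into polymers and IgA into dimers, and the chaperone MZB1, which assists the folding and secretion of IgM. CD38, an ectoenzyme that consumes NAD, is high on germinal centre B cells as well as on plasma cells. TNFRSF17 encodes BCMA, the receptor for the survival factors APRIL and BAFF on plasma cells, and SDC1 encodes syndecan-1 (CD138). Burkitt lymphoma cells resemble germinal centre B cells, in which most of this programme is not complete.

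A microRNA pairs with its targets through its seed, bases 2 to 8 counted from its 5′ end. The 3p arm of miR-28 is shown because its seed was looked for in the 3′ UTR of each measured gene. RefSeq places it on GRCh38.p14 at chr3:188688834-188688855, plus strand. The seed is in capitals, and the match in the IRF4 transcript is in capitals below it.
hsa-miR-28-3p: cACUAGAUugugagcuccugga
IRF4 3′ UTR: tctgtcctacaATCTAGTaatgtctaagta

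The IRF4 match (ATCTAGT, the 7mer-m8 site of this arm, searched on the transcript strand) lies at base 911 of a 3′ UTR of 3849 bases, at chr6:408509-408515 on the plus strand of GRCh38, in GENCODE release 29. IRF4 had 1 such site. The other 6 measured genes had 0 in their longest annotated 3′ UTR, over 197 bases in MZB1, 221 in TNFRSF17, 788 in JCHAIN, 991 in XBP1, 2453 in PRDM1 and 4628 in CD38. Among 10768 measured genes with an annotated 3′ UTR, whose median length was 1358.5 bases, 7.95% held the site. A match describes the letters of these UTRs and is not a measured site of action. Sites of miR-28-5p were not analysed here.

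Levels are given as CPM, read counts scaled by library size and TMM factors, and depth ran from 15404730 to 37876636 reads a library. The gene of the miR-28 precursor, MIR28 (ENSG00000207651), had 0.983, 1.70 and 3.16 CPM as lowest, median and highest values in miR-28 libraries, on 19 to 76 reads, and 0 reads in every scramble library, where 3 reads would be 0.0830 to 0.181 CPM. The groups did not overlap, and MIR28 was called in limma with batch (adjusted p = 0.0381) and with the pair as a block (adjusted p = 0.0239). It was higher with miR-28 under all 33 alternatives run and was called in 8 of them, with adjusted p-values of 4.1e-13 (DESeq2 with the block) to 1.00 (without pairs 3 and 6). It was not called in edgeR with batch (0.0623) or with the block (0.124), nor in limma when any single library or pair was left out. The 8 calls include a filter by expression that removed no gene and so repeats the fit with batch. The mature microRNA was not measured. The labelled cell type was checked on markers of B cells and of other cells. The B cell receptor chains CD79B and CD79A averaged 646.8 and 541.0 CPM in miR-28 libraries, against 541.3 and 587.6 CPM in scramble libraries. Of 7 T cell markers 1 was measured, TRAC, at 10.7 to 41.1 CPM in miR-28 and 8.83 to 52.1 CPM in scramble libraries, and of 4 stromal and epithelial markers 1, PECAM1, at 0.843 to 2.39 and 0.713 to 2.06 CPM. Of 4 NK cell and 5 myeloid markers 0 had a row in the table. In pair 3, 3.43% of the reads of the miR-28 library and 7.45% of those of the scramble library came from mitochondrially encoded transcripts, against at most 2.88% in the other libraries, so the scramble library of pair 3 stood apart. Values of pair 3 are therefore given apart where they carry a difference, and the part of that library's state in them was not tested. Where only the scramble library of pair 3 is left out, the value is from limma with batch. The miR-28 library of that pair then stays in the fit without its partner, so its own level weighs on the value. In bulk RNA, fewer cells that express a gene and less of its RNA per cell cannot be told apart.

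In these cells the secretory products were abundant and PRDM1 was low. Compared per length, as CPM per kilobase of annotated exon, JCHAIN stood highest, at 1309 ± 145 in miR-28 and 1317 ± 424 in scramble libraries (SD, n = 6 each). XBP1 came next with 257.1 ± 110 in miR-28 and 198.2 ± 61.4 in scramble libraries. MZB1 (98.7 ± 35.1 and 86.5 ± 43.8 per kilobase in miR-28 and scramble libraries), CD38 (70.2 ± 8.93 and 66.3 ± 8.58), TNFRSF17 (58.5 ± 27.3 and 43.9 ± 27.96) and IRF4 (52.0 ± 7.04 and 54.9 ± 11.7) followed, with gaps between neighbours smaller than the larger of their SDs, and in scramble libraries IRF4 stood above TNFRSF17. PRDM1 came last, at 0.227 ± 0.0962 in miR-28 and 0.313 ± 0.180 in scramble libraries. By mean CPM over the 12 libraries JCHAIN ranked 18 of 12725 genes, XBP1 168, CD38 302, IRF4 511, MZB1 901, TNFRSF17 4335 and PRDM1 11926. The heavy chain IGHM averaged 6499 CPM in miR-28 and 6690 CPM in scramble libraries, and the light chain IGLC2 4214 and 3899 CPM in miR-28 and scramble libraries. IGLC2 and IGLC3 are near-identical copies whose reads are uncertain.

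**Figure D1:**
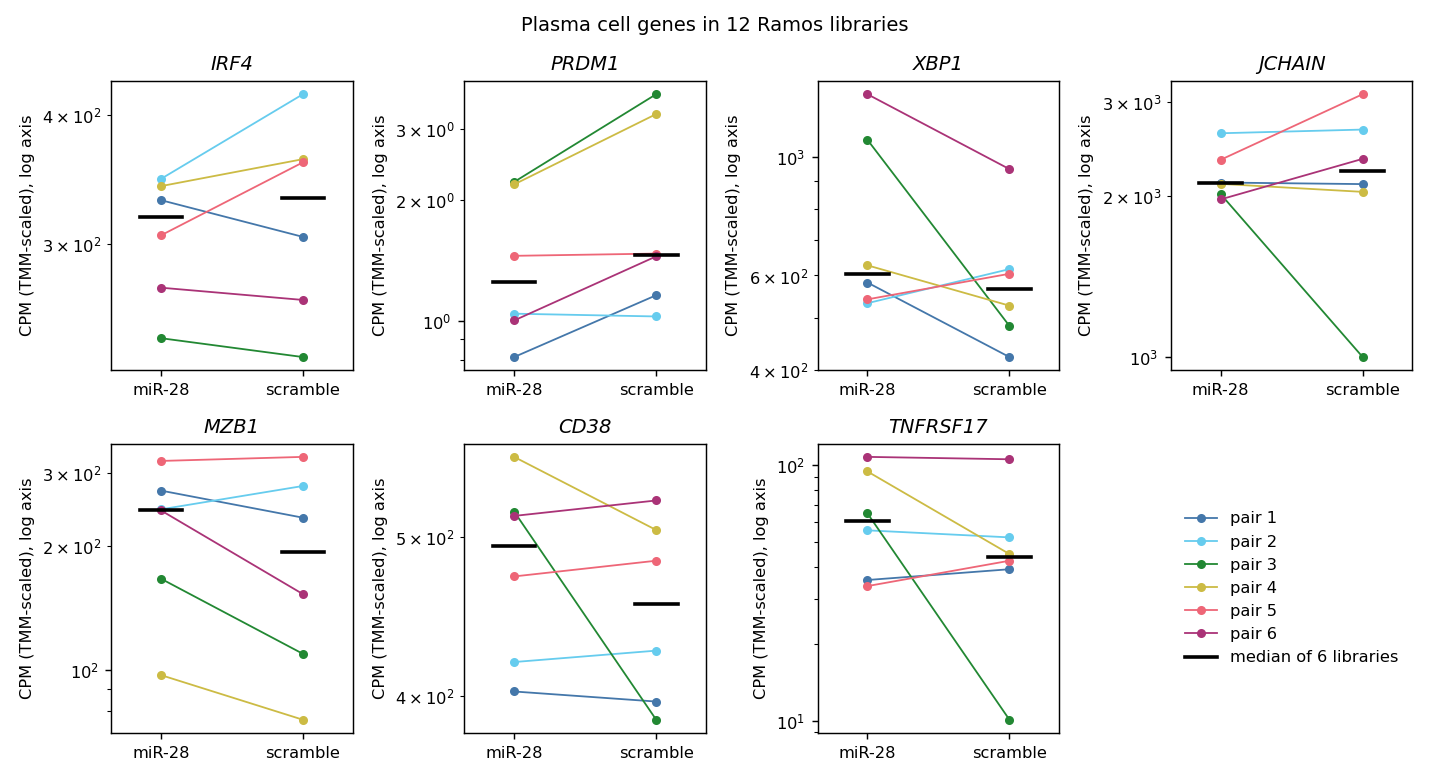
CPM on a log axis for each of the 7 measured genes, with a line for each of the 6 pairs from its miR-28 library (left) to its scramble library (right) and a black bar at the median of each group. Groups overlap for every gene, and the scramble library of pair 3 is lowest for TNFRSF17 at 10.1 CPM and for JCHAIN at 1001 CPM.

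The comparison of miR-28 with scramble cells asked whether the induced microRNA moved this programme. None of the 7 measured genes changed by the test: in limma on log2(CPM + 1) with library batch as a term, 0 of 7 had a Benjamini-Hochberg adjusted p under 0.05, with every adjusted p at 0.9999, beside 2 of 12725 genes in all (0.0157%), one of which was MIR28. The unadjusted p was under 0.05 for 0 of 7, beside 0.33% of all genes. That share is less than chance alone would give at this threshold. The fit does not use the pairs, so the spread between pairs stays in its error and widens its intervals. Over 10388 genes its SE had a median of 0.201, against 0.0944 once pairs were blocked. Its 0 of 7 is therefore weak evidence on these genes. Each SE given below has the same limit unless the block is named. With the sample pair as a block, limma again called 0 of 7, at adjusted p-values of 0.607 or more, beside 3 genes in all (0.0236%). The unadjusted p was then under 0.05 for 1 of 7, MZB1, beside 7.3% of all genes. The edgeR quasi-likelihood test and DESeq2 on reads recovered from the values called 0 of 7 with batch and with the block. With batch the unadjusted p was under 0.05 for 0 of 7 in either tool, and with the block for 1 in edgeR and 2 in DESeq2. Of the 7, 0 were higher and 0 lower in 6 of 6 pairs, where 2.07% of all genes were higher and 2.19% lower in every pair. A p that misses the threshold does not show that a gene was unchanged, and the intervals of the fold changes are given for that reason.

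Among the transcription factors, IRF4 had the smallest spread. IRF4 (ENSG00000137265, GRCh38 chromosome 6, 391739 to 411447) had 243.1 CPM at the lowest, 318.3 at the median and 346.9 at the highest in miR-28 libraries, against 233.1, 332.4 and 419.1 in scramble libraries. The groups covered nearly the same range, and the libraries of pairs 3 and 6 were the lowest of each group. The log2 fold change was -0.06 with a 95% interval of -0.41 to 0.29 in the limma fit with batch and -0.22 to 0.10 with the pair as a block. In 3 of 6 pairs the miR-28 library had the higher IRF4 value.

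PRDM1 (ENSG00000057657, chromosome 6, 106086320 to 106109939) was measured on 23 to 82 reads a library. Its lowest, median and highest values were 0.812, 1.24 and 2.21 CPM in miR-28 libraries and 1.02, 1.46 and 3.66 CPM in scramble libraries. The groups overlapped, and in each group pairs 3 and 4 were the highest. In 5 of 6 pairs PRDM1 was lower with miR-28, with a log2 fold change on the log2(CPM + 1) scale of -0.25 and a 95% interval of -0.82 to 0.32 with batch and -0.52 to 0.02 with the block. This scale understates the change of such a low gene, and edgeR on the recovered reads gave -0.47 with batch and -0.40 with the block. In pair 3, which carried the largest difference, the miR-28 library had 2.21 CPM (exact Poisson 95% interval 1.70 to 2.83) and the scramble library 3.66 CPM (2.91 to 4.54). In pair 4 the values were 2.18 CPM (1.602 to 2.90) in the miR-28 library and 3.26 CPM (2.56 to 4.10) in the scramble library. These intervals cover counting error only: those of pair 3 do not overlap and those of pair 4 do. In limma with batch the log2 fold change was -0.19 without pair 3. It was -0.08 without the scramble library of pair 3 alone, where the miR-28 library of that pair, the highest of its group, stayed in the fit.

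XBP1 (ENSG00000100219, chromosome 22, 28794555 to 28800597, minus strand) was the factor with the largest positive value. Its lowest, median and highest values were 532.4, 604.5 and 1311 CPM in miR-28 libraries, against 422.1, 565.6 and 949.0 CPM in scramble libraries. The medians lay close together, and the high values of the miR-28 group were those of pair 6, at 1311 CPM, and pair 3, at 1077 CPM. In 4 of 6 pairs XBP1 was higher with miR-28, by 2.23-fold in pair 3 (1077 against 482.6 CPM), 1.38-fold in pairs 1 and 6 and 1.19-fold in pair 4. Its log2 fold change was 0.33 with a 95% interval of -0.24 to 0.90 with batch and -0.02 to 0.68 with the block. Without pairs 3 and 6, a choice made after these values had been seen, it was 0.09. Gene-level counts do not tell the spliced from the unspliced XBP1 transcript, and the splice is what makes the active factor.

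JCHAIN (ENSG00000132465, chromosome 4, 70655541 to 70681817, minus strand) was the most abundant of the secretory genes. It had 1975, 2118 and 2626 CPM as lowest, median and highest values in miR-28 libraries and 1001, 2230 and 3107 CPM in scramble libraries. The scramble libraries spread further on either side, with the lowest value in pair 3 and the highest in pair 5. In 3 of 6 pairs JCHAIN was higher with miR-28, and its log2 fold change was 0.06 with a 95% interval of -0.47 to 0.60 with batch and -0.29 to 0.42 with the block. The sign rested on pair 3, where the miR-28 library had 2021 CPM and the scramble library 1001 CPM: without that pair the value was -0.12. In batch 1 alone the log2 fold change was 0.33 and in batch 2 alone -0.20. JCHAIN shares 87 exon bases with ENAM on the opposite strand, and since no strand setting is given those reads are uncertain.

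MZB1 (ENSG00000170476, chromosome 5, 139387480 to 139390081, minus strand) spanned the widest range of the secretory genes. Its lowest, median and highest values were 97.4, 244.3 and 320.8 CPM in miR-28 libraries, against 76.0, 193.4 and 328.1 CPM in scramble libraries. Within each group pair 4 was lowest and pair 5 highest, and the groups overlapped. The miR-28 library was higher in 4 of 6 pairs, most in pair 6, with 243.6 against 152.9 CPM, and pair 3, with 166.6 against 109.6 CPM. The log2 fold change was 0.27 with a 95% interval of -0.57 to 1.11 with batch. With the pair as a block the interval was 0.02 to 0.52 (limma unadjusted p = 0.0374, adjusted p = 0.607). Without pairs 3 and 6 the log2 fold change was 0.09.

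At the cell surface, CD38 (ENSG00000004468, chromosome 4, 15778275 to 15853230) varied least. Its lowest, median and highest values were 402.6, 494.2 and 559.7 CPM in miR-28 libraries and 386.9, 455.0 and 526.5 CPM in scramble libraries. The 95% interval of its log2 fold change, 0.08, was -0.14 to 0.31 with batch and -0.09 to 0.25 with the block. In 3 of 6 pairs CD38 was higher with miR-28, by 1.34-fold in pair 3 and by 1.11-fold or less in pairs 1 and 4, and without pair 3 the log2 fold change was 0.02.

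TNFRSF17 (ENSG00000048462, chromosome 16, 11965107 to 11968068) had the largest fold change of the 7 genes and the widest interval. It had 33.6, 60.3 and 107.9 CPM as lowest, median and highest values in miR-28 libraries, against 10.1, 43.6 and 105.6 CPM in scramble libraries. In pair 3 the miR-28 library had 64.9 CPM and the scramble library 10.1 CPM, a ratio of 6.44. In pair 4 the miR-28 library had 94.7 CPM and the scramble library 44.9 CPM. The ratio lay between 0.795 and 1.07 in pairs 1, 2, 5 and 6. The log2 fold change was 0.55 with a 95% interval of -0.38 to 1.48 with batch and -0.18 to 1.27 with the block, and 0.14 without pair 3. Its sister receptor TNFRSF13B, which encodes TACI, measured 2.89 CPM in miR-28 and 2.71 CPM in scramble libraries, and the BAFF receptor gene TNFRSF13C 4.93 and 5.44 CPM.

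**Figure D2:**
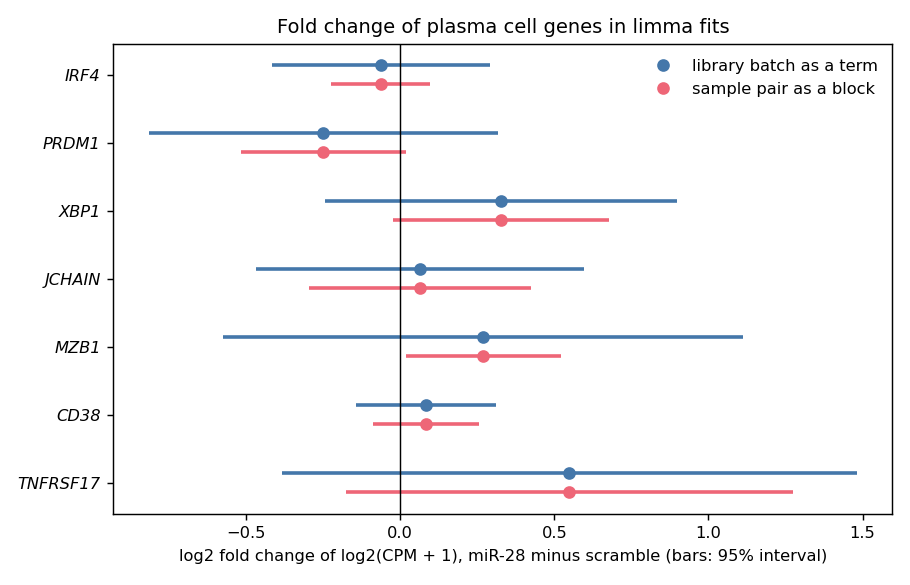
Log2 fold change, miR-28 minus scramble, of each of the 7 genes (points) with 95% intervals (bars) in limma with library batch as a term (blue) or the sample pair as a block (red). All intervals with batch include 0, and with the block the interval of MZB1, 0.02 to 0.52, lies just above it.

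**Figure D3:**
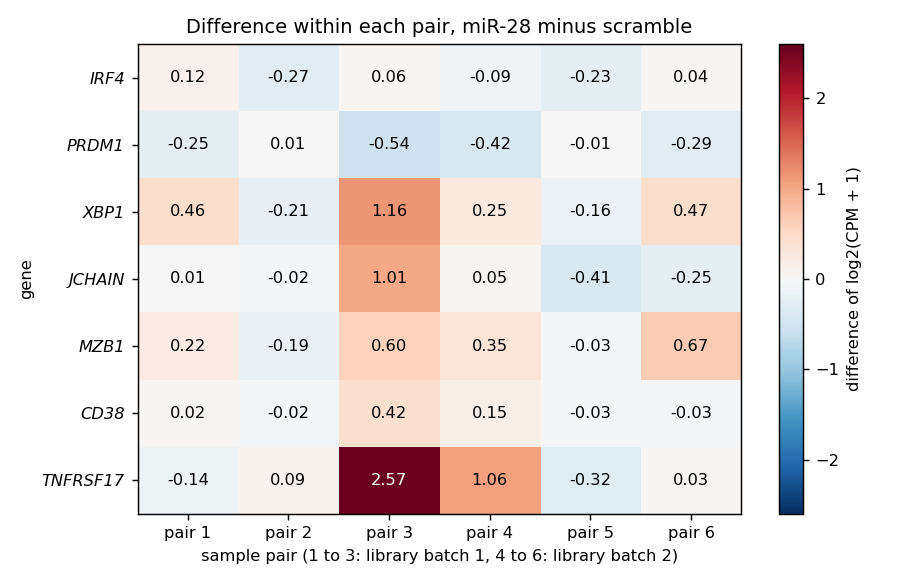
Difference of log2(CPM + 1) between the miR-28 and the scramble library of each pair (columns) for the 7 genes (rows), in red where miR-28 is higher. Pair 3 has the largest values of TNFRSF17 (2.57), XBP1 (1.16), JCHAIN and CD38, together with the lowest value of PRDM1, -0.54. The largest value of MZB1 is in pair 6 and that of IRF4 in pair 1.

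A term for group by library batch tested whether the 2 batches differed in effect. In limma 0 of 7 genes were called, with unadjusted p-values of 0.298 (JCHAIN) to 0.975 (PRDM1), beside 0 of 12725 genes (0%) in all and 0.0707% at an unadjusted p under 0.05. With the pair as a block 0 of 7 were called as well, at an unadjusted p of 0.103 or more, beside 1.34% of all genes at an unadjusted p under 0.05. In edgeR the interaction called 0 genes, with 8 at an unadjusted p under 0.05.

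How the spread of each gene was divided is given as a description. Of the sum of squares of log2(CPM + 1) over the 12 libraries, the pairs took 55.8% for TNFRSF17, 63.8% for JCHAIN, 64.9% for XBP1, 72.7% for CD38, 85.8% for PRDM1, 89.1% for IRF4 and 90.7% for MZB1. The groups took between 0.726% (JCHAIN) and 11.9% (XBP1), but 6 pairs have more degrees of freedom than a pair of groups, so these shares are not set against each other. Across 10388 genes with a mean of 5 CPM or more the median share between pairs was 85.1%, so TNFRSF17, JCHAIN, XBP1 and CD38 lay below it. PRDM1 is too low to be among those genes. As an SD of log2(CPM + 1), TNFRSF17 (0.90) and MZB1 (0.71) ranked at the 95.5th and 89.7th percentile of those genes, and CD38 (0.18) and IRF4 (0.26) at the 14.8th and 31.6th.

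The pairs did not move up or down in all 7 genes together. PRDM1 averaged 2.93 CPM over the libraries of pair 3 and 2.72 CPM over those of pair 4, and 0.984 to 1.46 CPM in pairs 1, 2, 5 and 6. MZB1 ran the other way, with 138.1 CPM in pair 3 and 86.7 CPM in pair 4 against 198.3 to 324.4 CPM in the other pairs. XBP1 was highest in pair 6, at 1130 CPM, and second in pair 3, at 780.1 CPM, while pairs 1, 2, 4 and 5 stood at 502.1 to 576.9 CPM. IRF4 was lowest in those same pairs, with 268.5 CPM in pair 6 and 238.1 CPM in pair 3, against 317.8 to 383.0 CPM elsewhere. JCHAIN was lowest in pair 3, at 1511 CPM, and between 2076 and 2724 CPM in the others. TNFRSF17 was highest in pairs 6 and 4, at 106.8 and 69.8 CPM, against 37.4 to 53.9 CPM in the others, and CD38 went from 399.7 CPM in pair 1 to 532.4 CPM in pair 4.

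Levels also varied among pairs with the same XENO number. Pairs 1, 4 and 5 share XENO 1, yet MZB1 had 97.4 CPM in the miR-28 library of pair 4 against 272.0 and 320.8 CPM in those of pairs 1 and 5, and 76.0 CPM against 233.9 and 328.1 CPM in the scramble libraries. In the 2 XENO 2 pairs, XBP1 had 1311 CPM (pair 6) and 532.4 CPM (pair 2) in the miR-28 libraries and 949.0 and 616.7 CPM in the scramble libraries. Between the numbers, XBP1 in scramble libraries was 616.7 to 949.0 CPM in XENO 2 and 422.1 to 604.4 CPM in XENO 1, and TNFRSF17 52.2 to 105.6 and 39.2 to 44.9 CPM, ranges that do not overlap. The scramble ranges of IRF4, PRDM1, JCHAIN, MZB1 and CD38 overlapped, and in miR-28 libraries those of every measured gene did. The share of all genes with separate ranges was not counted, and with so few libraries ranges can separate by chance. No test was made of these differences.

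The genes whose pattern over the 12 libraries was most like that of each gene were found by Pearson's r on log2(CPM + 1), among genes with a mean of 5 CPM or more. The 12 libraries are 6 pairs and not independent, so r is a description. For IRF4 MRPS18C was close (r = 0.905), and for PRDM1 TMBIM6 (0.960) and SAMD4A (0.959). XBP1 was followed by ZFAND1 (0.967) and ACTR1A (0.952), JCHAIN by PPP2R5A (0.955) and URI1 (0.938), and MZB1 by C19orf47 (0.990) and MPND (0.988). CD38 had USP38 (0.886) and MOB4 (0.883) beside it, and TNFRSF17 had ZNF804A (0.986) and STK17B (0.973). None of these genes is on any of the lists described next.

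The surrounding programme was read from lists chosen with earlier results of these data known, and their genes passed the limma test no more than the 7 did: with batch 0 genes of any list were called over all genes tested, and with the block 0 as well. At an unadjusted p under 0.05 there were 0 list genes with batch, and with the block 3 of 15 measured B cell regulators, 1 of 11 plasma cell regulators, 1 of 41 secretory genes, 3 of 6 immunoglobulin genes, 0 of 14 plasma cell surface genes and 1 of 14 B cell surface genes, beside 7.3% of all genes. Of 11 measured plasma cell regulators of 14 listed, 5 had a fold change above 0 and 6 below, with a median of -0.03, beside -0.01 over all genes. EAF2, a cofactor of transcription elongation, had a log2 fold change of 0.30 (SE 0.199), CREB3L2, a transcription factor of the secretory pathway, 0.41 (SE 0.315), the pseudokinase gene TRIB1 0.48 (SE 0.377) and TENT5C, a poly(A) polymerase, 0.28 (SE 0.273). In pair 3 their differences were 1.07, 1.47, 2.39 and 0.93, and without the scramble library of that pair the values were 0.12, 0.36, 0.10 and 0.08. These genes were chosen by the smallest p with batch, and all lay above 0. The regulator with an unadjusted p under 0.05 in limma with the block was SUB1, named after its values were seen. SUB1 had a log2 fold change of -0.28 (unadjusted p = 0.0166, adjusted p = 0.607 with the block) and was lower in 5 of 6 pairs. BHLHA15, a factor of secretory cells that XBP1 is known to induce, measured 3.37 CPM in miR-28 and 4.18 CPM in scramble libraries.

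Genes that XBP1 and the unfolded protein response are known to drive, or that serve the same secretory pathway, lay mostly below 0. Of 41 measured of 42 listed, 33 had a fold change below 0 and 8 above, with a median of -0.06. Over all 12725 genes 6730 lay below 0 and 5995 above. HYOU1, an ER chaperone, had a log2 fold change of -0.21 (SE 0.145), SEC61G of the translocon -0.20 (SE 0.139) and TXNDC11, a thioredoxin-domain protein, 0.41 (SE 0.314), with a difference of 1.76 in pair 3 and a value of 0.25 without the scramble library of that pair. EDEM1, which hands misfolded glycoproteins to degradation, had -0.42 (SE 0.372) and was lower in 6 of 6 pairs, with 235.9 to 698.4 CPM in miR-28 and 326.8 to 901.4 CPM in scramble libraries. EDEM1 was not called in limma with batch (adjusted p = 0.9999) or with the block (SE 0.0959, unadjusted p = 0.00140, adjusted p = 0.607). It was called in DESeq2 with the block (adjusted p = 0.0310). FKBP11 was the other gene of this list that was lower in 6 of 6 pairs, at 64.0 CPM in miR-28 and 71.4 CPM in scramble libraries, and it is named after its values were seen. The list's median difference within pairs was 0.10, -0.03, 0.03, 0.10, -0.17 and -0.36 in pairs 1 to 6.

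Immunoglobulin genes were measured for 6 of 15 listed, 3 above 0 and 3 below, with a median of 0.03. IGHD, the delta heavy chain of naive B cells, had a log2 fold change of 0.91 (SE 0.540), with 14.8 to 61.2 CPM in miR-28 and 5.45 to 52.9 CPM in scramble libraries, and was higher in 5 of 6 pairs. Its difference in pair 3 was 2.57, and without the scramble library of that pair the value was 0.66. IGHG1 (-0.48, SE 0.372) and IGHG3 (-0.59, SE 0.461) were low, at a mean of 1.22 and 4.18 CPM in miR-28 and 2.36 and 8.68 CPM in scramble libraries, and their reads are uncertain between near-identical copies. IGLC3 had 0.10 (SE 0.195). In limma these 4 had unadjusted p-values of 0.117 to 0.622 with batch. With the pair as a block in limma they were 0.0220 for IGHD, 0.0122 for IGHG1, 0.0343 for IGHG3 and 0.337 for IGLC3. The adjusted p-values with the block were 0.607 or more.

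Among 14 measured plasma cell surface and receptor genes of 18 listed, 9 lay above 0 and 5 below, with a median of 0.06. CD27, a costimulatory receptor of memory B cells and plasma cells, had a log2 fold change of 0.57 (SE 0.443), with 113.5 to 307.4 CPM in miR-28 and 29.6 to 202.7 CPM in scramble libraries, the lowest of them in pair 3. There its difference was 2.64, and without that scramble library the value was 0.14. LAX1, a signalling adaptor, had 0.32 (SE 0.255), the integrin gene ITGA4 0.19 (SE 0.240) and CD44, a hyaluronan receptor, -0.63 (SE 0.587). Without the scramble library of pair 3, where LAX1 differed by 1.15 and ITGA4 by 1.12, the values were 0.28 for LAX1, -0.05 for ITGA4 and -0.40 for CD44.

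The B cell side of the switch was present throughout. Of 15 measured B cell regulators of 16 listed, 10 lay above 0 and 5 below, with a median of 0.11, and by pair the median was 0.45 in pair 3 and -0.03 to 0.10 elsewhere. PAX5, the factor that keeps B cell identity, had a log2 fold change of 0.25 (SE 0.232), with 215.6 to 462.2 CPM in miR-28 and 132.7 to 343.3 CPM in scramble libraries. BACH2, a repressor of PRDM1, had 0.22 (SE 0.164), the zinc-finger factor gene IKZF1 0.33 (SE 0.244) and POU2F2, which encodes Oct-2, 0.34 (SE 0.334) and was higher in 6 of 6 pairs. In limma with the pair as a block the unadjusted p was 0.0283 for PAX5, 0.0482 for BACH2, 0.0681 for IKZF1 and 0.0306 for POU2F2. The adjusted p with the block was 0.607 for each. In pair 3 the differences were 0.70 for PAX5, 0.73 for BACH2, 1.26 for IKZF1 and 1.16 for POU2F2. Without the scramble library of that pair the log2 fold changes were 0.08, 0.07, 0.10 and 0.05 in the same order. The miR-28 library of pair 3 stayed in that fit without its partner. In the other pairs the differences ran from -0.05 to 0.43, -0.03 to 0.27, -0.06 to 0.67 and 0.01 to 0.40, in the same order. BCL6, the germinal centre factor that PRDM1 represses in turn, measured 653.2 CPM in miR-28 and 733.1 CPM in scramble libraries and was lower in 6 of 6 pairs. Its log2 fold change was -0.15 (SE 0.199), and in limma with the block the unadjusted p was 0.0697 (adjusted p = 0.607). The BCL6 differences were largest in pairs 3 (-0.37) and 6 (-0.31) and next to none in pair 4 (-0.002). Of 14 measured B cell surface genes of 16 listed 7 lay above 0 and 7 below, with a median of 0.01. CD79B, a signalling chain of the B cell receptor, had 0.32 (SE 0.238) and was higher in 6 of 6 pairs, by 1.19 in pair 3 and 0.05 to 0.20 in the others. Without the scramble library of pair 3 the value for CD79B was 0.12. Its unadjusted p in limma with the block was 0.0406 (adjusted p = 0.607). Its partner CD79A had -0.12 (SE 0.109), CD72 0.17 (SE 0.175) and TNFRSF13C -0.13 (SE 0.229), the last at 0.03 without pair 3.

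**Figure D4:**
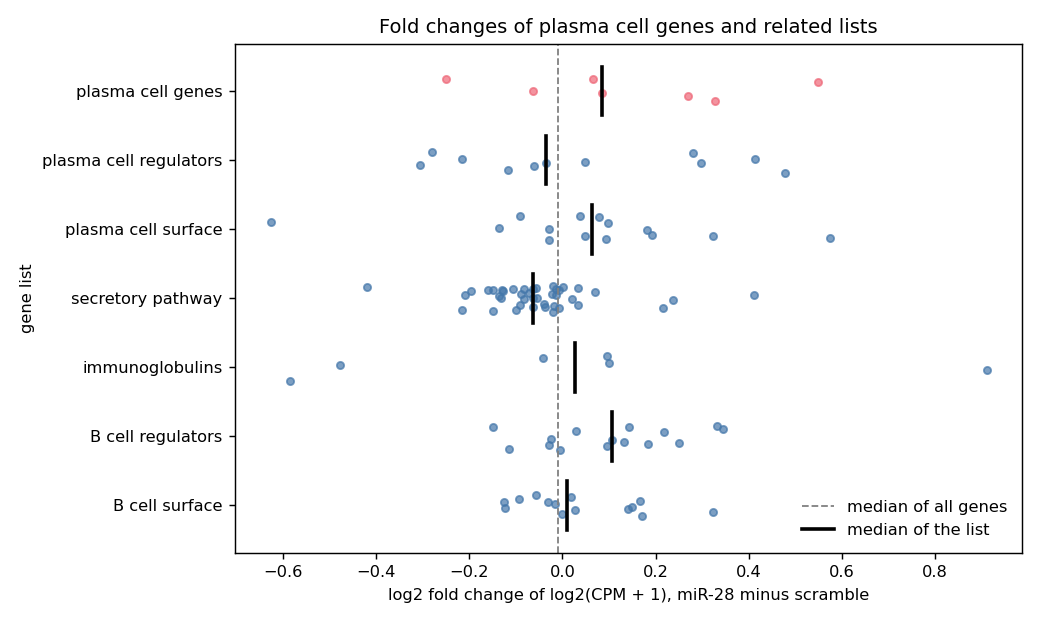
Log2 fold change, miR-28 minus scramble, of each measured gene in the plasma cell genes (red) and 6 related lists (blue), with a black bar at each list's median and a dashed line at the median of all genes, -0.01. The list medians lie between -0.06 and 0.11, and IGHD at 0.91 is the farthest point to the right.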

How the data were processed

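RNA-seq libraries were made from total RNA of the sorted cells, per the labels' protocols, for 6 miR-28 and 6 scramble samples. CASAVA 1.8.2, cutadapt, RSEM 1.2.3 and the build GRCh38 stand in the submitters' processing notes. Normalization, gene filter and annotation release were not given in the sources used here; TMM is inferred, since TMM-scaled CPM recomputed with edgeR from the recovered reads differed from the deposited values by at most 5.1e-13%. Signal values fill the deposited table, 1 column per library, with no replicates pooled. In each library 100% of values were whole multiples of 1 step within 0.01 reads, so the authors' values are read counts divided by an effective library size and rescaled to CPM, and reads were recovered for count tests. The value of 3 reads was 0.0830 to 0.181 CPM; such floors and intervals cover counting error only. Every gene exceeded 1 CPM in some library (lowest maximum 1.15).

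Symbols matched 12528 of 12725 identifiers; positions, exon lengths and 3′ UTRs came from GENCODE release 29, the microRNA from RefSeq. limma 3.58.1 (trend) on log2(value + 1) with library batch, in R 4.3.3, was fitted to all genes with no further filter; alternatives used the pair as a block, edgeR 4.0.16 and DESeq2 1.42.0. Within each labelled pair, deviations from the group means had a correlation of 0.740 to 0.906 over 10388 genes, highest with the library's own partner in each case. The pairs were used for differences within pairs and as a block in alternative fits. The main fit with library batch did not use them, and an SE beside a log2 fold change is from that fit unless the block is named. Over the same 10388 genes the SE of the fold change had a median of 0.201 in the batch fit and 0.0944 in the blocked fit. Genes named are the measured members, up to 4 genes per list with the smallest p, and the 2 closest in pattern to each member; markers and values named beyond these serve as description. A few results under these rules are not reported here. Members and lists were chosen with earlier results of these data known.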

Additional observations from a re-analysis of the deposited data

Results flagged for a closer look

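In groups of 6 libraries, a library was picked out where its gap to the nearest other value exceeded Dixon's 95% limit. Chance picks out about 1 in 20 such groups, and 8 of 62 were picked out over 31 genes, which share the same libraries. Among the plasma cell genes this was XBP1 in the scramble library of pair 6, at 949.0 CPM where the other scramble libraries had 422.1 to 616.7 CPM. The same library was high for CREB3L2, at 277.7 CPM against 94.2 to 156.6 CPM in the others, and for TXNDC11, at 253.5 CPM against 58.1 to 130.9 CPM. The scramble library of pair 3 was low for BACH2, at 305.2 CPM against 525.7 to 612.3 CPM, and for EAF2, at 15.3 CPM against 31.9 to 40.2 CPM. IGHG1 was high in both libraries of pair 4, at 3.29 CPM among miR-28 libraries, where the others had 0.591 to 1.33 CPM, and at 6.88 CPM among scramble libraries, where the others had 0.554 to 2.59 CPM. CD44 was high in the miR-28 library of pair 3, at 15.8 CPM against 0.759 to 3.29 CPM in the other miR-28 libraries. For each of the 31 genes the pairs of batch 1 and batch 2, and those of XENO 1 and XENO 2, were also compared for opposite directions, and 0 genes showed all pairs of one against all pairs of the other.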

How the results depend on the processing

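The count of called genes among the 7 plasma cell genes was 0 under all 33 alternatives run, of which the one without pairs 3 and 6 was chosen after seeing the data, with 0 to 2 at an unadjusted p under 0.05. Over all 12725 genes the count was 2 in limma with batch and 3 with the pair as a block. It was 0 in edgeR with batch (45 at an unadjusted p under 0.05), 1 in edgeR and 21 in DESeq2 with the block, 0 with plain CPM (36), 0 with reads summed per XENO number (232), 0 in batch 1 (13), 0 in batch 2 (12), 0 without pairs 3 and 6 (41), and 0 to 0 when any pair or any single library was left out (17 to 104). DESeq2 with batch gave 2, with 78 at an unadjusted p under 0.05. The cause of these differences was not tested. In limma the pair as a block changed no call of the genes named, MIR28 included. Fold changes of PRDM1, XBP1, MZB1, CD38 and TNFRSF17 kept their sign under all 33 alternatives. IRF4 changed sign in 2 of them, reaching 0.03 without the scramble library of pair 2, and JCHAIN in 5, reaching -0.20 in batch 2 alone. Leaving out a pair or a library moved TNFRSF17 between 0.14 and 0.81, XBP1 between 0.16 and 0.45 and MZB1 between 0.03 and 0.50. With reads summed per XENO number the value was 1.04 for TNFRSF17, 0.55 for XBP1 (unadjusted p = 0.0446, adjusted p = 0.730 in limma), 0.25 for JCHAIN and 0.17 for CD38. In that fit pair 3, which has no XENO number, stood alone and weighed as much as all pairs of XENO 1 or of XENO 2. In limma with batch without pair 3 the values were 0.14, 0.16, -0.12 and 0.02 in the same order. EDEM1 was called in 1 of 33 alternatives, DESeq2 with the block. Among the 33 alternatives, a filter by expression removed no gene and so repeats the main fit. All of them reuse the same libraries, so they are not independent checks. PRDM1, at 23 to 82 reads a library, had the fewest reads of the 7 genes.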

Other observations

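In pair 6 the difference of XBP1 and the median difference of the secretory genes lay on opposite sides of 0, and in pairs 1 to 5 they had the same sign. XBP1 had 1311 CPM in the miR-28 library and 949.0 CPM in the scramble library, a difference of 0.47, while the median difference of the 41 secretory genes was -0.36. HYOU1 (-0.71), SEC61G (-0.84) and HSPA5, the main ER chaperone (-0.73), were among them, the last named after its values were seen. In pair 3, XBP1 differed by 1.16 and the secretory genes by a median of 0.03. In pairs 1, 2, 4 and 5, XBP1 differed by 0.46, -0.21, 0.25 and -0.16, beside medians of 0.10, -0.03, 0.10 and -0.17.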
